A study of Danio rerio with 8 samples.

Results

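Chromatin accessibility in tp63 mutant (tp63 -/-) and wild-type (WT) zebrafish embryos was compared at 36 hours post fertilization (hpf), the later of the stages assayed. The comparison took in 4 of the 8 ATAC-seq libraries of the series, 2 replicates of each genotype at 36 hpf, and 161259 of the 337777 peaks listed over both genotypes and stages. It rested on 1 peak list per genotype, each holding the peaks that the irreproducible discovery rate (IDR) procedure kept over its 2 replicates. The WT list held 84703 peaks and the mutant list 76556.

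ATAC-seq uses the transposase Tn5, which inserts sequencing adapters where DNA is not packed in nucleosomes, so a peak marks an accessible region such as an active promoter or enhancer. The tp63 gene encodes p63, a transcription factor of the p53 family that is required for the stratified epithelia of vertebrates and is made in the basal cells of the embryonic epidermis. Through its binding to enhancers p63 is known to take part in the opening of chromatin at epidermal genes.

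Each 36 hpf library came from a pool of 5 whole, de-yolked embryos, either WT of the AB/Tübingen background or homozygous for a CRISPR/Cas9 deletion in tp63 that removes all isoforms. Groups of the same genotypes at the 8-somite stage, 2 libraries each, made from single embryos of heterozygous parents, were used to ask which 36 hpf regions were already open and how the same measures compared at that stage. The epidermis is 1 tissue among many in a whole embryo, so fewer cells of a type and less open chromatin per cell cannot be told apart. The deletion leaves no trace in a peak list, and neither genotype nor tissue could be checked against the labels. The number of reads per library is unknown from these lists, and the genotype that ran on each of the 2 sequencing instruments is not given in the sources used here, so a difference of instrument or depth and one of genotype cannot be told apart. With 1 pooled list per genotype no test between genotypes was possible. Every 95% interval below covers counting error only (Wilson for shares, order statistics for medians) and holds nothing of the variation between embryos.

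Peaks were matched where they shared at least 1 bp. This left 23805 WT peaks without a mutant peak, 28.1% of the WT list, and 16200 mutant peaks without a WT peak, 21.2% of the mutant list. These unmatched peaks were weak and narrow in both lists. Their median width was 271 bp in WT and 280 bp in the mutant, against 344 and 363 bp for the peaks matched one to one. Only 30 of the WT-only peaks and 8 of the mutant-only peaks ranked in the top 10% of their list. Most unmatched peaks had no listed peak of the other genotype close by. Peaks that fell short of the IDR cut are not in the lists, so the presence of one at the same place cannot be told. The nearest mutant peak lay a median of 6150 bp from a WT-only peak, and 12.6% (95% interval 12.1 to 13.0) of the WT-only peaks had one within 1000 bp. Mutant-only peaks were closer to a WT peak, with a median gap of 4868.5 bp and 17.4% (16.8 to 18.0) within 1000 bp. Their gaps were measured to the longer list, and the part of list length in this difference was not tested. The WT list was 1.11 times as long as the mutant list. With both lists cut to the same number of top peaks, where nearly one-to-one matching makes the shares nearly equal by construction, they were 23.5% and 23.7%.

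The other peaks formed 61531 overlapping pairs, of which 58013 were one to one, and the strength, summit and width of these 58013 pairs are described first. Peaks were ordered by the −log10 p of the peak call, ties by fold enrichment, and the ranks of each list were put on a percentile scale from 0 (weakest) to 100 (strongest). Ties were frequent, 80.7% of the WT and 74.2% of the mutant peaks sharing both values with another peak, but the largest set of tied peaks spanned only 0.936 percentile points in WT and 0.797 in the mutant. The rank shift of a pair is its mutant percentile minus its WT percentile.

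The order of open regions was largely the same in mutant and WT embryos. Spearman's rho of the ranks was 0.860 over the 58013 pairs, whose members in each list share libraries and depth, and Pearson's r of log2 fold enrichment was 0.865. The absolute rank shift had a median of 7.78 points, and 37.3% of pairs lay within 5 points of equal rank. The interquartile range of the shifts was −1.85 to 1.03 points where the mean rank of the pair was above 90, −18.2 to 12.4 between 30 and 40, and −5.57 to 4.71 below 10. A scale that ends at 0 and 100 limits the shifts near both ends.

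**Figure D1:**
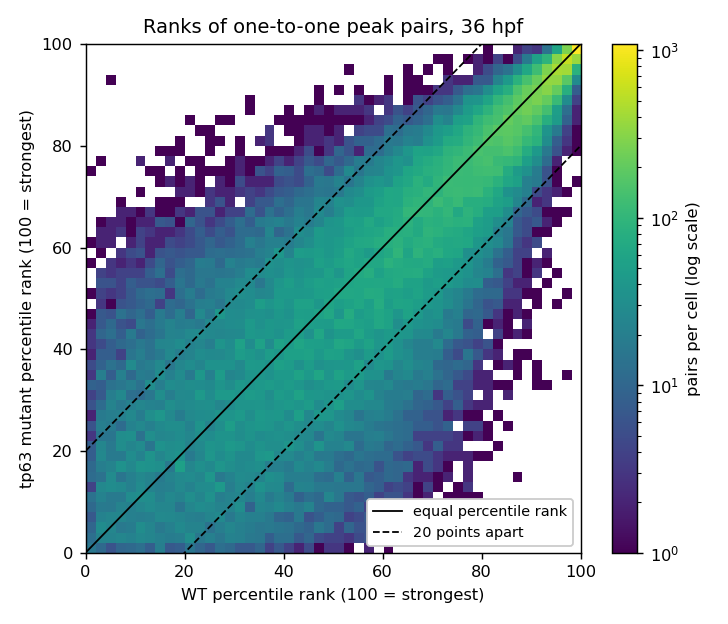
Percentile rank in WT (x axis) and in the tp63 mutant (y axis) of the 58013 one-to-one peak pairs at 36 hpf, as the number of pairs per cell of 2 by 2 points on a log colour scale. The solid line marks equal rank and the dashed lines a shift of 20 points; 11.0% of pairs lie at or below the lower dashed line and 6.83% at or above the upper one, and the cloud narrows towards the strongest peaks.

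A pair was called shifted at 20 percentile points or more. In the mutant 6396 pairs, 11.0% of the pairs, were lower by this measure and 3964 pairs, 6.83%, were higher. The median shift was −1.42 points (−1.51 to −1.33), and 210 pairs were lower and 107 higher by 50 points or more. The balance of the 2 directions depended on the scale. Percentiles among the pairs alone centre the shifts on 0 by construction, and gave 8.90% lower and 9.00% higher. With both lists cut to equal size the median shift turned to 0.46, with 7.69% lower and 10.4% higher. No direction for all regions together is therefore given.

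The lower pairs had moved from the stronger part of the WT list into the weaker part of the mutant list. Their median percentile was 58.6 in WT and 27.1 in the mutant, their median fold enrichment 6.81 in WT and 5.50 in the mutant, and their median −log10 p 23.0 and 17.0. The higher pairs had moved the other way, with a median percentile of 23.3 in WT and 54.5 in the mutant. Their median fold enrichment was 4.97 and 6.89, and their median −log10 p 13.6 and 25.8. The median ratio of mutant over WT fold enrichment was 0.811 in the lower and 1.38 in the higher pairs. These 2 ratios are not centred, and the lists themselves differed, with a median fold enrichment of 6.12 in WT and 6.49 in the mutant. The size of the signal difference is therefore not compared between the 2 directions. Fold enrichment comes from the same peak calls as the ranks, so these values describe the shifted pairs and are no separate measurement. Differences in fold enrichment itself were small. With the log2 ratios of fold enrichment centred on their median over all pairs, 384 pairs (0.662%) were lower by 1.5-fold or more in the mutant and 685 (1.18%) higher.

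Regions with no listed WT peak at 8 somites, here called late-opening, were lower in the mutant more often than regions with one, called already open. A region without a listed peak is not shown to have been closed at that stage. Among the pairs, 10767 had a WT 36 hpf peak that overlapped no WT peak at 8 somites, and 17.7% (17.0 to 18.4) of these were lower by 20 points or more, against 9.51% (9.25 to 9.78) of the 47246 pairs already open. Higher pairs were more frequent too, 10.01% against 6.11%, and late-opening pairs had weaker ranks, with a median of the mean rank of 36.2 against 66.5. Shifts of both signs were wide at such ranks, so the classes were also compared at equal rank. Within 10 bins of the mean rank the median shift of the late-opening pairs was the lower of the 2 in 8 bins, and in 9 when ranks were computed among pairs alone. Shifts of 20 points were found in 8 of the bins, the scale leaving no room for them in the weakest and the strongest one. The late-opening pairs held the larger share of lower pairs in 7 of these 8 and the larger share of higher pairs in 1. At equal rank the shares of lower pairs were much closer than over all pairs. They were 23.9% of late-opening against 21.5% of other pairs from 30 to 40, and 11.6% against 9.85% from 60 to 70. In the 1 bin that went the other way, from 10 to 20, they were 11.7% against 12.6%. In the bin from 60 to 70, for example, the median shift was −4.44 points (−5.64 to −2.99) in 846 late-opening pairs and −2.59 (−3.01 to −2.08) in 6488 pairs already open. Taking the mutant 8-somite list in place of the WT list as the mark of late opening gave 17.6% lower and 10.02% higher among 14347 pairs. The excess of lower pairs among late-opening regions held in all 11 settings computed, the reported one included, and with equal list sizes it was 12.7% against 6.62%. These settings did not match rank. The late-opening pairs also held the larger share of higher pairs in them, with equal list sizes 15.6% against 9.30%. With equal list sizes alone the late-opening pairs held more higher pairs (15.6%) than lower ones.

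**Figure D2:**
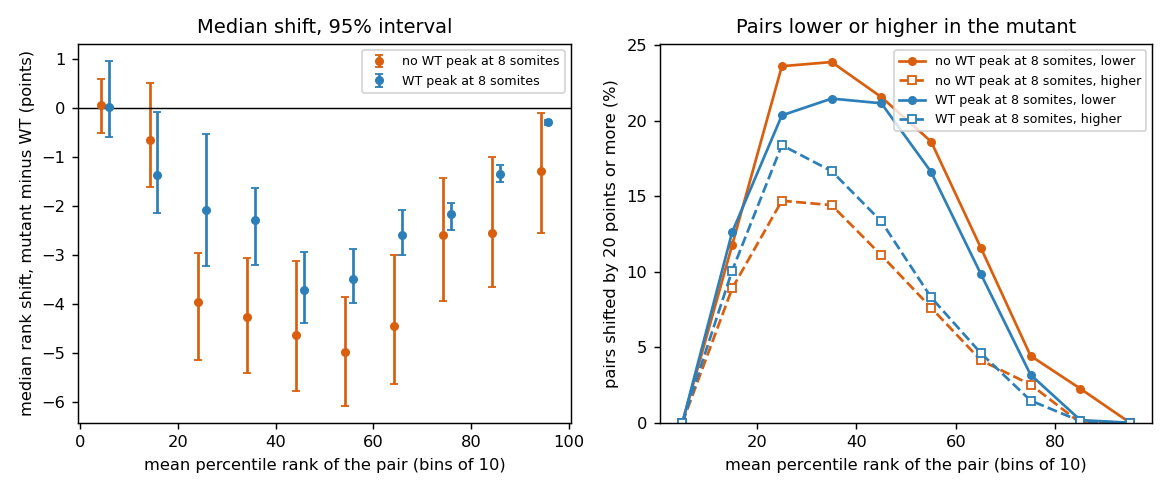
One-to-one pairs at 36 hpf whose WT peak overlaps no WT 8-somite peak (orange) or overlaps one (blue), in 10 bins of the mean percentile rank of the pair. Left, median rank shift in percentile points with its 95% interval, lower for the late-opening pairs in 8 of 10 bins, with overlapping intervals in all 10. Right, the percentage of pairs lower (filled) or higher (open) in the mutant by 20 points or more, with shifts of that size rare above a mean rank of 80.

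Large shifts of strong peaks were few. Of 8892 pairs with at least 1 member in the top 10% of its list, 57 were lower in the mutant and 18 higher. Of the 57 lower pairs, 11 had no WT peak at 8 somites, as did 0.810% of the 8892 pairs and 18.6% of all one-to-one pairs. The 18 higher pairs were set against the mutant list instead, and all 18 overlapped a mutant 8-somite peak, as did 98.8% of the 8892 and 75.3% of all. These counts rest on different 8-somite lists, so the 2 directions are not compared by them. At least 1 of the 18, at chr1:29977733-29977905, had no WT peak listed at 8 somites. Mean rank was not matched in these comparisons, and no pair with a mean rank above 90 was called shifted. Late-opening pairs were 29 of 7272 above that rank, 177 of 7415 from 80 to 90 and 474 of 7271 from 70 to 80. The part of rank in the share of late-opening regions among the 57 lower pairs was not tested. The largest fall on an assembled chromosome was at chr17:448279-449083 (GRCz10, as all coordinates here), at rank 4940 in WT with a fold enrichment of 9.70 and at rank 74773 in the mutant with 4.12, a shift of −91.8 points. The mutant peak there, chr17:448334-448803, ended before the WT summit at position 448897, the summits being 487 bp apart, so the strong part of the WT region had no listed peak in the mutant. Neither genotype had a peak at this place at 8 somites.

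The next largest falls had summits 2 to 38 bp apart. At chr3:7252414-7252696 the fold enrichment was 13.2 in WT and 6.47 in the mutant, with summits 2 bp apart and a shift of −62.1 points. At 8 somites the same region had been strong in both genotypes, at percentile 86.0 in WT and 93.9 in the mutant. Regions at chr4:67665058-67665404 (13.1 in WT, 6.49 in the mutant), chr3:58433101-58433401 (12.7 and 6.47) and chr25:7143219-7143559 (10.3 and 5.36) had shifts of −59.8, −58.6 and −55.8 points. At 8 somites 1 of these 3 regions had a peak in the mutant and not in WT, and the others had one in WT only, at percentile 33.4 or below.

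Among strong mutant peaks the largest gain was at chr2:6024627-6025203, at rank 80241 in WT and 5548 in the mutant, with a fold enrichment of 4.59 and 9.49. Its summits lay 306 bp apart, and at 8 somites both genotypes had ranked it high, at percentile 91.9 in WT and 86.8 in the mutant. The gains at chr14:25866835-25867072 (44.2 points), chr3:6991366-6991616 (40.4 points), chr6:25271678-25271861 (39.9 points) and chr1:29977733-29977905 (36.5 points) began from the middle of the WT list. In each of these 4 regions the mutant peak was also wider, from 1.52 to 2.29 times the WT peak.

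Summits stayed close together in mutant and WT. Their median distance was 14 bp, with an interquartile range of 4 to 36 bp, and in 6.19% of pairs they fell on the same base. The mutant summit lay at the higher coordinate in 47.0% of pairs and at the lower in 46.8%, so there was no common offset. Summits 100 bp or more apart occurred in 2788 pairs (4.81%), and the largest distance was 1009 bp. Both strength and width went with the distance. The median fell from 31 bp in the weakest bin of mean rank to 8 bp in the strongest. Distant summits made up 0.498% (0.387 to 0.642) of pairs with a WT peak under 250 bp and 14.2% (13.2 to 15.2) of those with a WT peak of 600 bp or more. Narrow peaks leave little room for summits 100 bp apart, so this trend with width is partly set by construction.

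**Figure D3:**
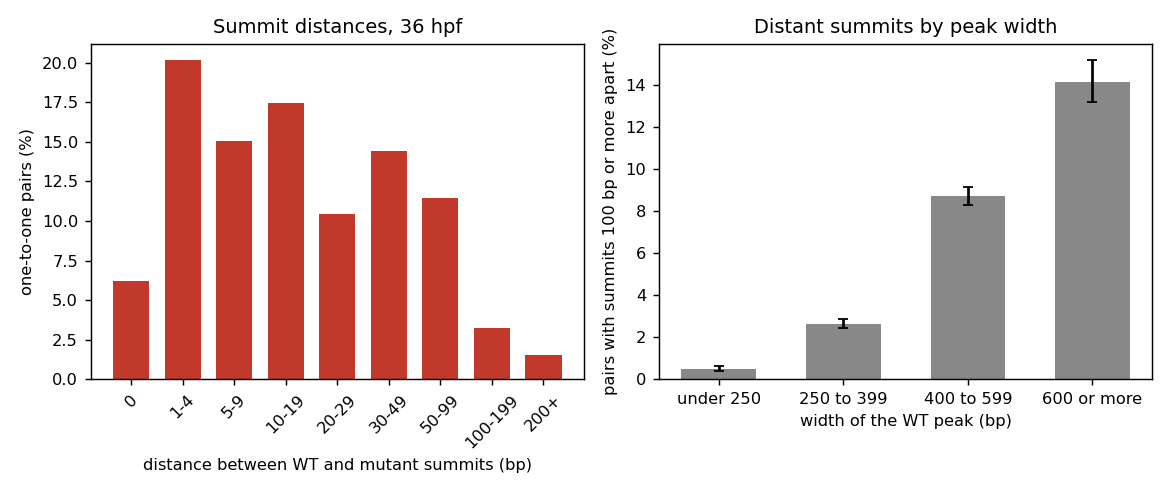
Left, distance in bp between the WT and the mutant summit of the 58013 one-to-one pairs at 36 hpf, as the percentage of pairs in each class; 6.19% of summits coincide and 4.81% lie 100 bp or more apart. Right, percentage of pairs with summits 100 bp or more apart by the width of the WT peak, with 95% Wilson intervals, from 0.498% in the narrowest class to 14.2% in the widest. Narrow peaks leave little room for such distances.

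Where both members were in the top 10% of their list, 71 of 6051 pairs (1.17%) had distant summits. The largest such distance was 735 bp, in a broad region at chr20:54644938-54646211, whose rank changed by −2.06 points. The following ones were 513 bp at chr6:55342007-55342906 and 434 bp at chr7:17676121-17676939, with shifts of 2.76 and −0.91 points. In these regions the highest point lay in another part of the peak. Their small rank shifts are no separate result, since pairs within the top 10% cannot shift by more than 10 points.

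At 8 somites the summits of these regions did not follow genotype. Of the regions paired at both stages, 1629 had 36 hpf summits 100 bp or more apart. The 8-somite summits of both genotypes lay nearer the WT 36 hpf summit in 548 of them (33.6%) and nearer the mutant one in 596 (36.6%), whereas each genotype lay nearer its own later summit in 233 (14.3%) and nearer the other genotype's in 246 (15.1%). At 8 somites 297 of the 1629 (18.2%) also had distant summits, against 4.01% of all regions paired at both stages, and the mutant summit lay on the same side at both stages in 146 of these 297. Peak widths were not matched in this comparison, and at 36 hpf distant summits were more frequent in wide peaks.

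Mutant peaks were slightly wider than WT peaks at 36 hpf. The median width was 344 bp in WT and 363 bp in the mutant, the median ratio of a pair 1.04 (0.05 on the log2 scale), and 60.3% (59.9 to 60.7) of the pairs were wider in the mutant against 38.8% narrower. Taken singly, each edge lay a median of 5 bp further out in the mutant. Both edges of a pair lay further out in 31.9% of pairs and both further in in 16.6%, and in 51.5% neither was the case. The mutant peak was 1.5 times as wide or more in 3700 pairs (6.38%) and the WT peak in 1704 (2.94%). The median log2 ratio lay between 0.05 and 0.06 in each of the 10 bins of mean rank. By the geometric mean width of the pair it was 0.03 (0.03 to 0.04) under 250 bp, 0.06 in both middle classes and 0.05 at 600 bp or more. By the width of the WT peak alone, which enters the ratio itself, it was 0.13 under 250 bp and −0.004 at 600 bp or more. It was absent from the pairs lower by 20 points or more, whose median ratio was 1.00, and largest in the higher ones, at 1.09.

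The width difference had the opposite sign at 8 somites. Over 62854 one-to-one pairs of that stage the median width ratio of mutant over WT was 0.962, 37.5% of pairs were wider in the mutant, and the ratio was below 1 in all 10 bins of mean rank. The −log10 p of the peak calls moved with the width at both stages. At 36 hpf the mutant member of a pair had 1.111 times the −log10 p of the WT member (1.109 to 1.114), higher in 67.7% of pairs, and at 8 somites 0.814 times (0.812 to 0.816), higher in 20.8%. The ratio of fold enrichment was 1.01 at 36 hpf and 0.900 at 8 somites. The part of these differences of the peak calls in the widths was not tested.

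**Figure D4:**
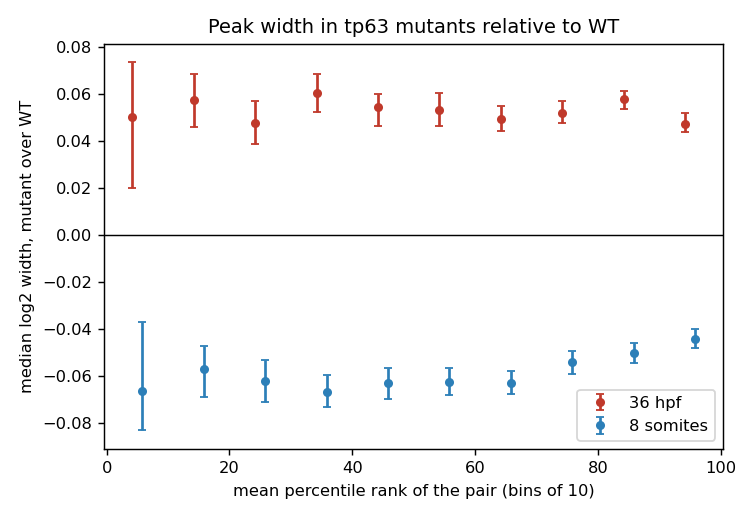
Median log2 ratio of mutant over WT peak width, with its 95% interval, in 10 bins of the mean percentile rank of one-to-one pairs at 36 hpf (red) and at 8 somites (blue). All 10 values lie above 0 at 36 hpf and all 10 below 0 at 8 somites.

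Joined and divided peaks followed the same pattern. In the mutant 1159 peaks (1.51% of the list) each covered several WT peaks, 1143 of them a pair and 16 of them 3, while 629 WT peaks (0.743%) covered several mutant peaks, a ratio of 1.84. The joined WT peaks were separated by a median gap of 38 bp, and the summit of the joining mutant peak lay in the stronger WT peak in 87.5% (85.5 to 89.3) of cases. The ratio was 0.654 at 8 somites, with 482 joining mutant and 737 joining WT peaks. One of the strongest examples was the mutant peak at chr15:18193826-18194971, 1146 bp wide and at rank 501, which covered WT peaks of ranks 732, 40192 and 65080. In the other direction a WT peak of 1671 bp at chr2:56006148-56007818 covered 3 mutant peaks, of ranks 20838, 17742 and 4619.

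The largest width differences among strong one-to-one pairs, with both members in the top 10% of their list, mostly left the summit in place. At chr5:12336659-12336888 both summits fell on the same base, but the mutant peak was 837 bp wide and the WT peak 230 bp. The mutant peaks at chr21:11823997-11824289 and chr7:28862064-28862454 were 3.42 and 3.05 times as wide as these WT peaks. The largest differences the other way were at chr20:4840483-4841690, where the WT peak was 2.97 times as wide as the mutant peak with summits 22 bp apart, chr15:47624693-47625328 (2.59 times) and chr17:19478796-19479577 (2.43 times). All 6 pairs differed by less than 4 percentile points in rank. These small shifts are no separate result, since pairs chosen within the top 10% of both lists have no room for large ones.

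Rank shifts at 36 hpf and at 8 somites were nearly unrelated in direction. At both stages 39432 regions had a one-to-one pair, and over these Pearson's r of the rank shifts was −0.01 and Spearman's rho −0.006; the 4 lists come from different embryos, and the points share the libraries and depth of each list. Of the 3281 regions lower by 20 points or more at 36 hpf, 61.7% (60.01 to 63.3) had a lower rank in the 8-somite mutant, as did 63.8% (61.7 to 65.8) of the 2195 higher regions and 64.7% of all 39432. A shift of 20 points at 8 somites was more frequent in shifted regions of either direction. At that stage 20.6% of the lower and 20.4% of the higher regions were lower by 20 points or more, against 14.7% of all regions, and 8.17% and 6.01% were higher, against 4.30% of all. Ranks were not matched in this comparison. The width ratios were likewise unrelated between stages (r = −0.01).

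On the scale of the full lists all 25 chromosomes had a negative median shift, between −2.21 points on chromosome 5 and −0.38 on chromosome 22. Pairs lower in the mutant made up 9.18% on chromosome 11 to 12.7% on chromosome 18, and pairs higher made up 5.55% on chromosome 2 to 9.09% on chromosome 4. The mutant peaks were wider on every chromosome, with a median log2 ratio of 0.04 to 0.07, and the median summit distance was 12 to 15 bp. On chromosome 4 both directions were frequent beyond 30 Mb, the gene-poor, repeat-rich long arm, where 18.4% (14.5 to 23.1) of 315 pairs were lower and 12.7% (9.47 to 16.8) higher. There 40.7% of the WT and 33.5% of the mutant peaks were unmatched, against 27.5% and 23.4% on the rest of that chromosome. The median log2 width ratio was 0 on this arm and 0.06 on the rest of chromosome 4. In the outer 5% at each chromosome end 12.01% (11.3 to 12.8) of pairs were lower and 5.82% (5.31 to 6.37) higher, against 10.8% (10.5 to 11.0) and 6.998% (6.78 to 7.23) in the inner 90%.

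**Figure D5:**
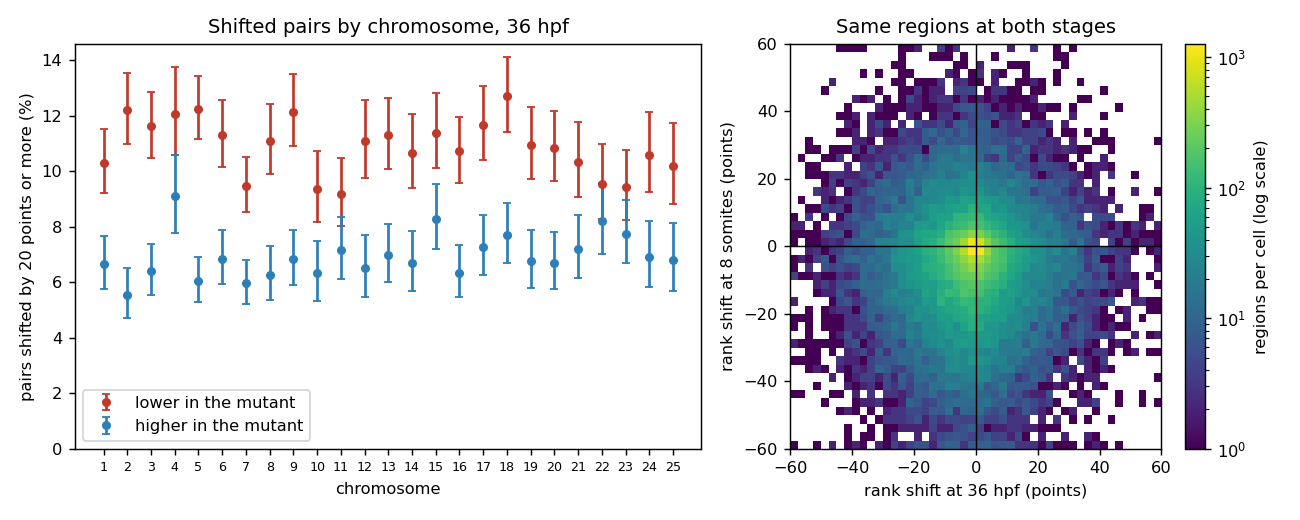
Left, percentage of one-to-one pairs lower (red) or higher (blue) in the mutant by 20 percentile points or more on each of the 25 chromosomes at 36 hpf, with 95% Wilson intervals; the lower pairs range from 9.18% to 12.7%. Right, rank shift in percentile points at 36 hpf (x axis) and at 8 somites (y axis) of 39432 regions paired at both stages, as regions per cell on a log colour scale; the cloud has no slope (r = −0.01), and the 120 regions beyond 60 points on either axis are drawn at its edge.

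Adjacent pairs along the chromosomes had weakly related shifts. Pearson's r of the rank shifts was 0.06 over 1339 neighbours closer than 500 bp, 0.01 to 0.04 in the 4 classes of larger distance, and r of the log2 fold enrichment ratios was 0.15 under 500 bp and 0.05 to 0.07 beyond. Neighbours share libraries and, where near, sequence context. Lower pairs, by 20 points or more, made up 11.0% of all pairs. After such a pair the next one was lower too in 12.3% of cases under 500 bp, 11.3% at 2 to 10 kb and 17.6% beyond 50 kb. The background differed between these classes, the first pair being lower in 106 of 1339, 1963 of 18906 and 903 of 6639 neighbours. In 1248 windows of 1 Mb with 20 pairs or more, the median shift had a 5th to 95th percentile range of −6.41 to 1.70 points and was negative in 77.9%. The lowest windows were chr18 from 4 to 5 Mb, with −13.3 points (−24.0 to −6.37) and 21 of 24 pairs lower in rank, chr6 from 5 to 6 Mb with −12.3 points (−38.3 to 3.54) and 19 of 27 pairs lower, and chr2 from 39 to 40 Mb with −10.7 (−12.0 to −0.68). Those with the highest medians were chr21 from 31 to 32 Mb, with 8.15 points (2.67 to 11.8) and 7 of 30 pairs lower in rank, and 2 windows of chromosome 23, from 21 to 22 Mb and from 23 to 24 Mb, with 6.05 and 6.03. At 8 somites all 6 windows had negative medians, −2.56, −2.19 and −8.07 points in the lowest and −11.1 to −8.46 in the highest, as had 91.3% of all 1248 windows. The minimum of 20 pairs was not applied at that stage. These medians rest on 12, 16 and 26 pairs in the lowest windows and on 16 to 29 in the highest. Over all windows r of the medians at the 2 stages was −0.144.

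Of the 6396 lower pairs 1547 (24.2%) stood next to another lower pair, and of the 3964 higher pairs 532 (13.4%) next to another higher one. Lower pairs made up 11.0% of all pairs and higher pairs 6.83%, and a pair can have a neighbour on either side. Runs of 3 or more numbered 116 and 28. The shares and runs that independent pairs would give were not computed, so no clustering is read from these counts. The longest runs of adjacent pairs lower by 20 points or more held 5 pairs, at 3 places, and were singled out after their values were seen. The most compact spanned 22.9 kb at chr1:27568637-27591505. Its strongest region, chr1:27583347-27583629, was at rank 5476 in WT with a fold enrichment of 13.9 and at rank 27401 in the mutant with 8.84. The pair at chr1:27574216-27574382 went from percentile 82.2 in WT to 27.8 in the mutant, and the one at chr1:27591308-27591505 from 83.1 to 38.5. The first and second pairs of the run had shifts of −23.5 and −27.8 points, but their fold enrichment was nearly the same in both genotypes, 5.73 in WT and 5.81 in the mutant for the first and 5.61 and 5.67 for the second. None of the 5 regions had a peak in either genotype at 8 somites, so all 5 were listed only at the later stage. The other runs of 5 spanned 90.2 kb at chr16:50803081-50893304 and 106 kb at chr19:10632253-10737908. The longest run of higher pairs held 4 regions over 19.9 kb at chr25:35799636-35819534, with shifts of 21.3 to 28.2 points, and all 4 had a WT peak at 8 somites, as did 81.4% of all pairs. One of them had no mutant peak at 8 somites, and the other 3 had 8-somite shifts of −13.6, 11.6 and −70.0 points.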

How the data were processed

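Zebrafish ATAC-seq peak lists, 1 per genotype and stage, were used as the authors deposited them, on GRCz10 (danRer10). Per the submitters' notes and the study's methods, Bowtie2 and SAMtools were used, pairs with mates over 2 kb apart were removed, Tn5 cut sites were extended by 5 bp, and peaks were kept by IDR over 2 replicates. The largest global IDR in the lists was 0.1. The ATAC-seq peak caller is not given in the sources used here. The deposited columns used were the ratio of fold enrichment, the −log10 p-value that ranked the peaks and the −log10 global IDR, and no result rests on the deposited IDR score. No value per replicate is in a list, so replicates could not be compared, and p-values between genotypes were not computed.

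Peaks were matched by 1 bp overlap with Python 3.11.15, pandas 2.3.3 and numpy 2.4.6, and the overlaps were tested on simulated data against bedtools 2.31.1. Rank shifts of 20 points, fold enrichments of 1.5, widths of 1.5 times and summit distances of 100 bp were called. Named regions lay on assembled chromosomes. Those taken from one-to-one pairs were the 5 largest falls and 5 largest gains with the stronger member in the top 10%. The 3 most distant summits and 3 largest width ratios each way were taken from pairs with both members in the top 10%. Also named were the peaks covering most peaks of the other list, the 3 lowest and 3 highest windows, and the longest runs of shifted pairs. The regions, thresholds and comparisons were chosen with earlier results of these data known. Other overlaps, list lengths, rankings, IDR thresholds and call sizes were tried. Genes near peaks, p63 motifs and sequences were not analysed, since no genome or annotation of this build was used here.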

Additional observations from a re-analysis of the deposited data

How the results depend on the processing

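Over 119 alternative values 48 stayed within their interval, 70 lay outside it and 1 changed sign. The sign change was the median rank shift with equal list sizes, at 0.46 points. That setting also gave 7.69% lower and 10.4% higher pairs, 12.7% lower and 15.6% higher among late-opening pairs, 6.62% and 9.30% among the others, 23.5% WT-only and 23.7% mutant-only peaks and 4.52% distant summits. With percentiles among matched pairs only the median shift was 0, the lower and higher pairs 8.90% and 9.00%, the late-opening lower pairs 12.3%, and the others 8.13% lower and 8.67% higher. Both settings change the peaks over which percentiles are taken. Ranking by fold enrichment gave a median shift of −1.55, 11.3% lower and 7.66% higher pairs, 16.4% and 10.9% among late-opening pairs and 10.2% and 6.92% among the others.

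At an IDR of at most 0.01 the shares were 23.7% WT-only and 15.5% mutant-only, the median shift −1.86, the lower pairs 12.5%, the late-opening pairs 19.9% lower and 9.39% higher, the others 11.8% and 6.36%, distant summits 3.60%, the median summit distance 11 bp and pairs wider in the mutant 61.8%. Overlap of 50% of both peaks gave 31.7% WT-only, 24.5% mutant-only and 5.02% distant summits, and summits within 500 bp gave 27.1%, 19.8%, 4.99% and a median log2 width ratio of 0.055. All overlapping pairs, joined peaks included, gave a median shift of −1.30, 11.4% lower and 7.90% higher pairs, 12.3% higher among late-opening pairs, 9.98% and 6.91% lower and higher among the others, 7.45% distant summits and a log2 width ratio of 0.057.

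Calling pairs at 10 points gave 25.1% lower and 16.4% higher (late-opening 35.3% and 22.5%, others 22.8% and 15.0%), and at 30 points 4.35% and 2.46% (late-opening 7.76% and 3.63%, others 3.58% and 2.20%). Distant summits were 16.3% at 50 bp and 1.55% at 200 bp. Calling 2-fold differences of fold enrichment left 0.0086% lower and 0.019% higher, and without centring 0.533% were lower and 1.42% higher at 1.5-fold. Of regions lower by 30 points at 36 hpf, 58.9% were lower at 8 somites. With percentiles among regions of all 4 lists this share was 46.2% for regions lower by 20 points, 51.3% for those higher and 49.6% for all. For these values the cause was not tested. The settings for late-opening and other pairs were chosen after seeing the data.

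No paired analysis was possible because each group has 1 list pooled over its replicates, and leaving out a replicate was not possible either. Summits and matches were most variable among weak peaks, and read numbers per library are not in the lists.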
